A study of Cervus nippon with 40 samples.

Results

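The miRNA bta-miR-7, called miR-7 here, was followed by its name through 40 small RNA libraries of male Sika Deer (Cervus nippon, breed Shuangyang), and it was listed in all 40. It is 1 of 337 known miRNA names and of 500 names in all, the remainder being predicted miRNAs that carry only a number. It was selected on its measured levels in these same libraries, above all in the adrenal, so its own levels are given as a description and carry no test. The libraries covered adrenal, antler, brain, heart, kidney, liver, lung, skeletal muscle, spleen and testes at 4 development stages, with no treatment in any group. The deer called juvenile were 1 year old, those in adolescence 3 years, the adult deer 5 years and the aged deer 10 years. Each organ had 1 library per stage, made from pooled RNA of 3 deer. The study used 12 deer, so the 10 organ libraries of a stage came from the same 3 animals and those of another stage from other animals. There was therefore no replicate of any organ at any stage, and age cannot be told apart from the animals that were pooled. In what follows, younger means juvenile and adolescence, and older means adult and aged.

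A miRNA is a short RNA that guides a silencing complex to messenger RNAs through base pairing of its seed, the bases near its 5′ end. miR-7 is an old miRNA, shared by insects and vertebrates, and in mammals it is known for high levels in neurons and in endocrine cells such as those of the pituitary and the pancreatic islets. The adrenal gland joins a steroid-producing cortex to a medulla of chromaffin cells, which are neuroendocrine cells of the neural crest. In mammals several gene copies give the same mature miR-7, so reads counted under the name do not show which copy they came from.

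The values are reads per 1000000 miRNA reads of a library (RPM), so a level is a share of the miRNA reads and not an amount per cell. Libraries held 41866 to 7759033 miRNA reads (median 744715), and miR-7 took 255 to 505336 reads in a library and 1218581 in all. Of 18 organ marker miRNAs, 16 had their highest mean RPM in the organ they mark, while miR-133a was highest in heart in place of skeletal muscle and miR-192 in kidney in place of liver. The kidney and liver means of miR-192 were nearly equal, at 162722 and 162672 RPM. Several of the 16 were scarce, with 1 read in all for miR-885 and miR-204 and 5 for miR-10a and miR-499. They are a weak check of the labels, whereas miR-133a and miR-192 had 1314340 and 612991 reads. By Pearson's r over the tested miRNAs, 37 of 40 libraries were nearest to another library of their own organ. The other 3 were adolescence lung and aged spleen, each of which had the other as its nearest library (r = 0.95), and the juvenile testes, whose nearest library was the juvenile adrenal (r = 0.921). The adolescence testes library was shallow, with 67231 miRNA reads, but so were the adult testes (97018) and the aged testes (41866). The nearest library to the adolescence testes was the adult testes (r = 0.920), so nearness did not set it apart. The part of depth in its miR-7 level was not tested. The adolescence lung, the aged spleen and the adolescence testes are called the 3 doubted libraries below, and the juvenile testes is not among them. Each of the 3 held the highest miR-7 of its organ by a wide gap, so results without them are not independent of miR-7.

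In the adrenal, miR-7 alone made up 47.4% of miRNA reads in the juvenile library (297197 of 626605 reads) and 59.1% in adolescence (505336 of 855724 reads). It made up 9.31% in the adult library (55674 of 598098 reads) and 9.90% in the aged library (92571 of 935346 reads). Both younger libraries thus lay far above both older ones. As a share of reads, the 2 older libraries lay close together and the 2 younger ones less so. Exact binomial 95% intervals, which cover counting error only, ran from 47.3 to 47.6% in the juvenile, 58.9 to 59.2% in adolescence, 9.23 to 9.38% in the adult and 9.84 to 9.96% in the aged library. The mean of the younger libraries was 5.54 times that of the older. In bulk tissue, fewer cells of a type and less RNA per cell cannot be told apart. The share of 118 other miRNAs in the adrenal (those with at least 10 reads in any adrenal library) whose older libraries both lay below both younger ones was 32.2%, so the separation by itself was common in this organ.

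miR-7 was the most abundant name in both younger adrenal libraries, at 10.8 times the next name in the juvenile (let-7b) and 14.1 times the next in adolescence (miR-409b). In the adult and aged libraries it had rank 3, at 0.472 and 0.470 times let-7b. The let-7b reads were also listed under a second name, miR-3596, with equal reads in all 40 libraries, and with such names counted only under the former miR-7 had rank 2. Its share of the reads then became 55.5% in the juvenile, 65.9% in adolescence, 12.8% in the adult and 13.8% in the aged adrenal.

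The adrenal miRNAs that followed miR-7 were let-7b, miR-409b, miR-145, miR-30c and miR-199a-3p. let-7b, of the let-7 family that is known to accumulate as tissues mature, held 4.39%, 2.89%, 19.7% and 21.1% of reads from juvenile to aged. miR-409b, of the imprinted DLK1-DIO3 miRNA cluster, held 2.99%, 4.19%, 7.97% and 7.44%. miR-145, a miRNA of smooth muscle, held 2.60%, 1.87%, 7.86% and 3.00%. Since shares of a library sum to a fixed total, they were also taken with miR-7 left out. With miR-7 reads set aside, let-7b held 8.36%, 7.05%, 21.8% and 23.4% of the rest, and both older libraries stayed above both younger ones. miR-409b then held 5.69%, 10.2%, 8.79% and 8.26% of the rest, and its older values fell between its younger ones. miR-30c held 3.37%, 3.35%, 4.26% and 3.94% of all reads, but 6.42%, 8.17%, 4.70% and 4.37% of the rest. On the latter base both its older libraries lay below both younger ones. miR-199a-3p ran from 2.47% to 4.37% of all reads, with overlap between younger and older libraries. Of the rest miR-199a-3p held 8.32%, 6.02%, 3.28% and 4.17%, with both older libraries below both younger ones.

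**Figure D1:**
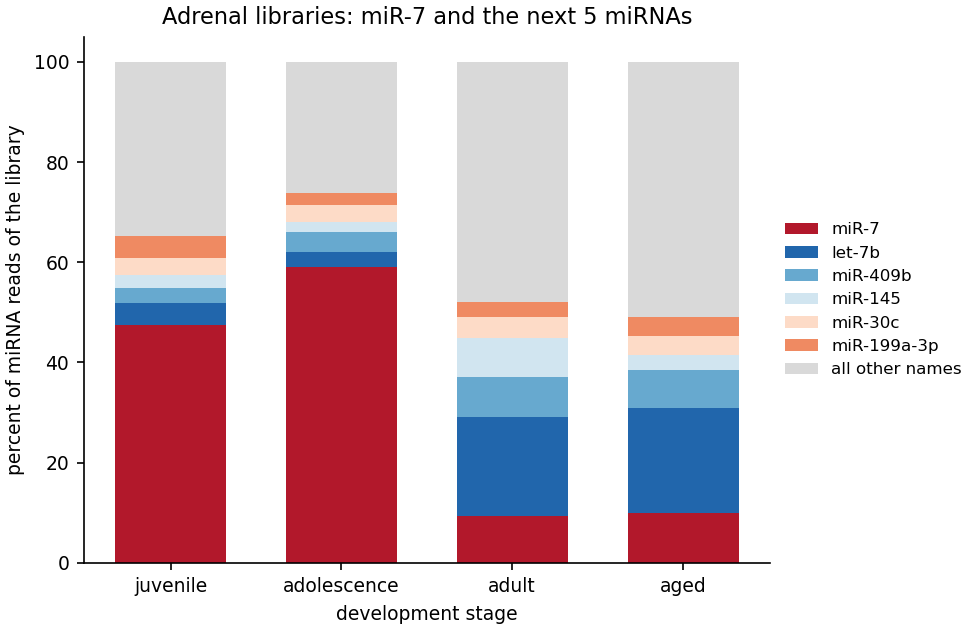
Percent of the miRNA reads of each adrenal library (y axis) by development stage (x axis, 1 library each), stacked for miR-7, the 5 miRNAs with the next highest mean RPM, and all other names. miR-7 fills 47.4% and 59.1% of the younger bars and 9.31% and 9.90% of the older ones.

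Counted against all other miRNA reads of the same library, miR-7 gave 0.902 reads per other read in the juvenile adrenal, 1.44 in adolescence, 0.103 in the adult and 0.110 in the aged. The younger mean was 11.03 times the older on this measure. Over 101 other miRNAs with at least 10 reads in 2 adrenal libraries, the median log2 ratio of older to younger was 0.24 as a share of all reads and -0.69 as a share of the reads without miR-7. On the first measure 58 of these 101 were higher in the older libraries, and on the second 34, so the way in which most other miRNAs appeared to move depended on whether miR-7 was in the total.

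A model of organ by maturity over all 40 libraries (limma on log2(RPM + 1) after TMM scaling) gave a fitted log2 difference of -3.20 (SE 0.93) for miR-7 between older and younger adrenal. Its size depended on the scaling. It was -2.46 with total miRNA reads, -2.73 with DESeq2 size factors, -2.30 per clean read of the library and -2.06 with TMM factors taken over all known names in place of the tested ones. These scalings also moved the median of all 124 tested miRNAs, which was -0.29 under TMM, 0.41 with total reads, 0.14 with DESeq2 factors, 0.32 per clean read and 0.74 with TMM over all known names. Relative to that median, the log2 difference of miR-7 was -2.92 under TMM, -2.87 with total reads, -2.87 with DESeq2 factors, -2.62 per clean read and -2.80 with TMM over all known names.

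The levels of some marker miRNAs differed between younger and older adrenal in the same direction as miR-7. Of 3 skeletal muscle markers, miR-1 held 6601, 3124, 1986 and 825 RPM from juvenile to aged, whereas miR-133a went the other way with 128, 152, 851 and 429 RPM and miR-206 had no read. Their sum was 6728, 3276, 2837 and 1254 RPM. Of 3 brain markers, miR-128 and miR-219-3p had no read in the adrenal, and the sum rested on miR-124a, at 55.9, 72.5, 8.36 and 12.8 RPM on 35, 62, 5 and 12 reads. Of 2 liver markers, miR-885 had no read in the adrenal and miR-192, nearly equal in kidney and liver, held 6280, 4721, 1194 and 1297 RPM. The 2 spleen markers summed to 47.9, 42.1, 11.7 and 16.0 RPM, and the 3 kidney markers to 12.8, 10.5, 13.4 and 22.5 RPM, highest in the aged. The 2 blood markers stayed between 608 and 1019 RPM, and the 2 smooth muscle markers ran from 18702 to 78648 RPM, highest in the adult. The 3 heart markers were at 0 in all 4 adrenal libraries. The part of tissue make-up in the miR-7 levels was not tested.

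Across organs, the adrenal had the highest mean RPM of miR-7 (314222, SD 256391 over 4 stages), followed by brain (50484, SD 24023), testes (30989, SD 36360) and antler (13983, SD 8158). Spleen (7088), lung (5573), kidney (3653) and liver (2472) came next, and heart (526) and skeletal muscle (352) were lowest. These SDs are over stages and not over replicates. In RPM the adrenal range, 93085 to 590536, did not overlap that of brain (29532 to 81127), and the liver range, 1384 to 3693 RPM, did not overlap that of heart. All other neighbours in this order overlapped. The gap between adrenal and brain held in RPM and with miR-1 left out of the total, and not under either TMM version, with DESeq2 factors, per clean read or with near-identical names counted 1 time, where the adult adrenal lay below the juvenile brain. Under TMM the adult and aged adrenal held 30081 and 44754 RPM against 93172 in the juvenile brain. Without the 3 doubted libraries the mean of testes was 12850 RPM, below antler, that of spleen 2747, below kidney, and that of lung 2576. The adrenal and brain together held 92.8% of all miR-7 reads, with 78.0% in the adrenal alone. These are shares of pooled reads, so organs with shallow libraries, such as testes, count for less in them.

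In RPM the adrenal was the highest organ at each of the 4 stages, at 5.85 times brain in the juvenile, 17.8 times in adolescence, 1.60 times in the adult and 3.35 times in the aged. The adult adrenal stood the least far above brain, and brain came before it under TMM (30696 against 30081 RPM) and with DESeq2 factors (40303 against 40231), which is a ratio of 0.980 and 0.998. At the other 3 stages the adrenal was first under each scaling. Over the 4 stages the ratio of mean RPM between adrenal and brain was 6.22. It was 3.70 with TMM scaling, 3.70 with DESeq2 factors, 5.14 per clean read, 4.56 with near-identical names counted 1 time and 3.95 without the adolescence libraries. Brain was the next organ under each of these. Skeletal muscle was lowest at every stage in RPM, and the adrenal stood 315 to 1417 times above it. In muscle, however, miR-1 alone filled most of the library, so shares there were also taken without it. With miR-1 left out of the total, miR-7 made up 0.272% to 0.652% of the reads in skeletal muscle, against 0.0242% to 0.0536% with it. Set on that base, 4 or 5 organs lay below muscle at each stage, liver among them, and the adrenal stood 22.5 to 115 times above it. Under TMM muscle held 6010, 16164, 10181 and 3245 RPM, above kidney, liver and heart at every stage, and the adrenal stood 2.95 to 51.0 times above it.

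**Figure D2:**
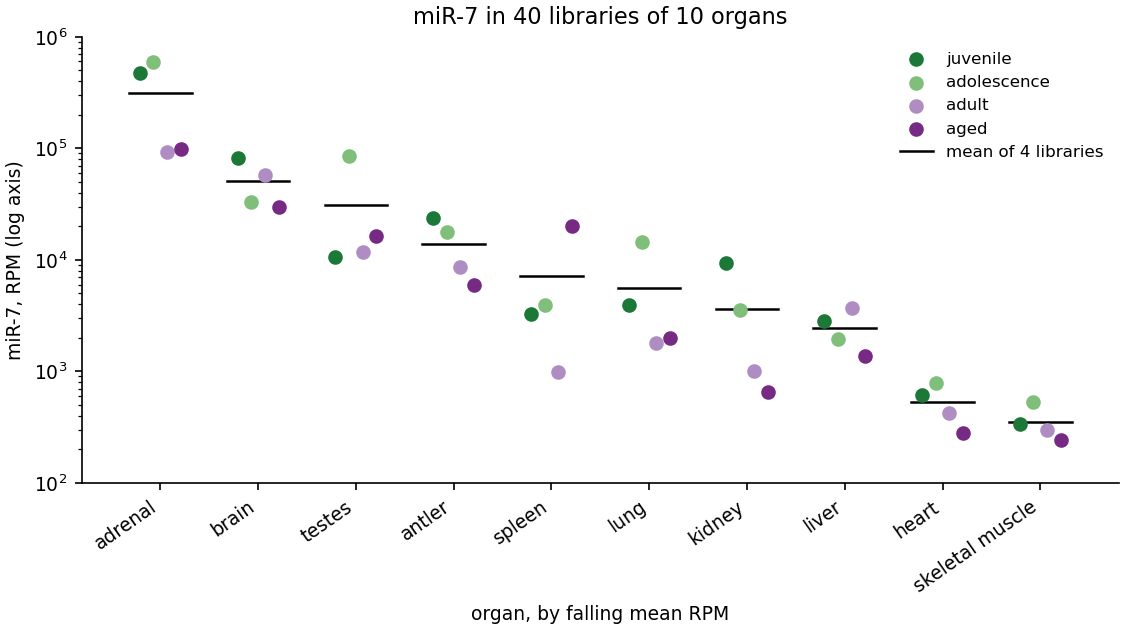
RPM of miR-7 (y axis, log scale) in each of the 10 organs (x axis, by falling mean), with 1 point per library coloured by stage and a line at the mean of the 4 libraries. The adrenal points, 93085 to 590536 RPM, lie above all brain points, and single high points stand out in testes (adolescence), spleen (aged) and lung (adolescence). Under TMM or DESeq2 scaling, not drawn here, the adrenal and brain ranges overlap.

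In brain, miR-7 held 81127 RPM in the juvenile, 33260 in adolescence, 58015 in the adult and 29532 in the aged library, on 94093, 12254, 46346 and 27236 reads. The younger and older libraries overlapped, since adolescence lay below the adult. Under TMM scaling the order changed to 93172, 51635, 30696 and 28557 RPM, so that both older libraries lay below both younger ones, as they also did with DESeq2 factors (74940, 45557, 40303 and 25922). The adolescence brain library was poor in miR-124a, the neuron-specific miRNA that marks brain, with 2446 RPM against 31967 to 57640 in the other 3. The part of this library's make-up in its miR-7 level was not tested. As a rank, miR-7 was among the first 5 names in each brain library.

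In the testes, miR-7 held 10609, 85407, 11699 and 16242 RPM from juvenile to aged, on 5683, 5742, 1135 and 680 reads. Only the adolescence library stood high, and its reads were nearly those of the juvenile library while its total was 67231 against 535668. Testes ranked above brain at that stage only. Without that library testes was higher in older than in younger, with a ratio of younger to older of 0.759, against 3.44 with it.

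Antler, the bony organ that regrows yearly, gave 23546, 17823, 8627 and 5935 RPM, lower at each later stage. Kidney gave 9425, 3533, 1008 and 647 RPM, also lower at each later stage, and its younger mean was 7.83 times its older mean, the largest ratio of the 10 organs in RPM. Kidney reads were few, at 3105, 1297, 332 and 554. Liver gave 2846, 1967, 3693 and 1384 RPM with no order between younger and older. Heart gave 611, 788, 425 and 282 RPM, and skeletal muscle 335, 536, 296 and 242 RPM, so both had their highest value in adolescence and their lowest in the aged library.

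Lung gave 3951, 14563, 1793 and 1985 RPM, and spleen 3285, 3961, 996 and 20109 RPM. The highest value of each came from the library that stood apart from its organ. The ratio of younger to older in lung was 4.90 with the adolescence library and 2.09 without it. In spleen that ratio was 0.343 with the aged library, which makes spleen higher in older, and 3.64 without it, which makes it lower.

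In RPM, the older mean of miR-7 was below the younger mean in 8 of 10 organs, the exceptions being spleen and liver, and 14.6% of the 123 other tested miRNAs were lower in as many organs. The number of organs was 9 under TMM, 9 with DESeq2 factors and 7 per clean read. Without the 3 doubted libraries it was again 8 in RPM, with spleen joining and testes leaving. Both older libraries lay below both younger ones in 6 organs, and in no organ did both lie above. Among the 123 other miRNAs, 4 were separated in this way in at least 6 organs, or 3.25%. The 6 organs were adrenal, antler, lung, kidney, heart and skeletal muscle. Beside the 32.2% given for the adrenal, the share of other miRNAs so separated was 28.7% in antler, 10.9% in lung, 39.8% in kidney, 9.52% in heart and 31.5% in skeletal muscle. Scaling changed which organs were separated. TMM and DESeq2 factors added brain and lost skeletal muscle, and the count stayed at 6. TMM over all known names added brain, for 7 organs. Per clean read testes was added and antler lost, with an antler log2 ratio of older to younger of 0.06, for 6 organs. Because the 10 organs of a stage came from the same deer, the organs are not separate trials of an age difference.

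The ratio of younger to older mean RPM was 5.54 in the adrenal, against 1.31 in brain, 2.84 in antler, 1.98 in heart and 1.62 in skeletal muscle. In heart, where miR-1 held 577640 and 814910 RPM in the younger and 316406 and 151290 RPM in the older libraries, the ratio was 5.98 with miR-1 left out of the total and 10.04 under TMM. The fitted log2 difference relative to the median of all tested miRNAs was -2.92 in adrenal, -2.61 in kidney, -2.44 in heart, -1.90 in lung, -1.23 in brain, -1.15 in antler, -0.68 in testes, -0.60 in skeletal muscle, -0.24 in liver and 0.80 in spleen. Its standard error before the median was taken off was 0.93 in each organ, so the values of adrenal, kidney, heart and lung differed by little more than 1 such standard error. In a fit without the 3 doubted libraries, spleen turned to -1.46 and testes to 0.58, and lung was -0.73, while adrenal was -2.94, kidney -2.60 and heart -2.35.

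**Figure D3:**
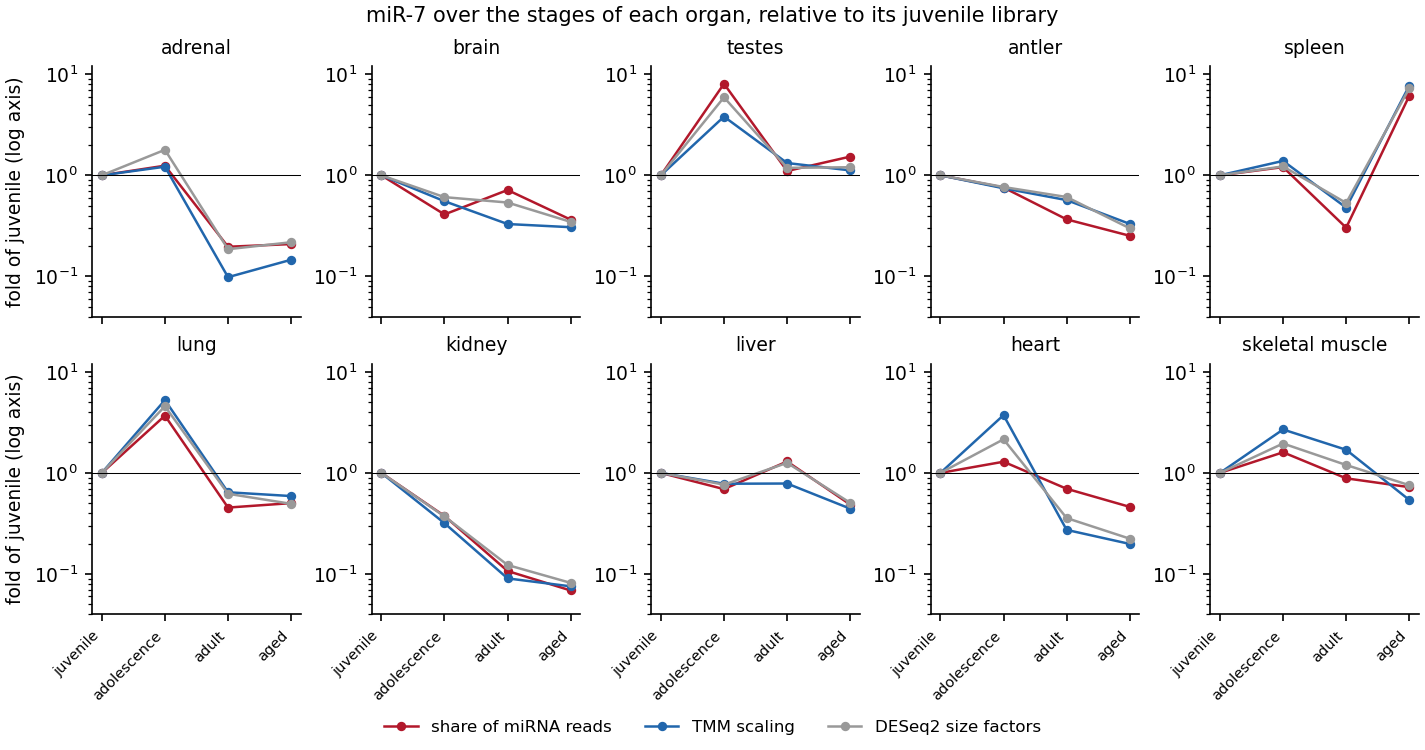
miR-7 in each library divided by its juvenile library (y axis, log scale) over the 4 stages (x axis), 1 panel per organ, as a share of miRNA reads and after TMM scaling or DESeq2 size factors. In the adrenal the adult and aged points lie below the younger ones under each scaling, kidney is lower at each stage, and lung, testes and spleen show a single peak.

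Between neighbouring stages, RPM of miR-7 differed by at least 2-fold in 12 of 30 steps, 9 of them lower and 3 higher. Without the 3 doubted libraries 7 of the 25 steps left did so, all lower. The 3 higher steps all ended in these libraries, so leaving them out fixed in advance that no higher step remained. Under TMM, with DESeq2 factors and per clean read the count was 13 of 30 each, and 8 of the 12 steps passed the limit in the same direction under all of these. In the adrenal only the step from adolescence to adult passed this limit, with a ratio of 0.158 (counting interval 0.156 to 0.159), where 23.9% of the other miRNAs with at least 10 reads in either library were also lower by 2-fold. This step was 0.0807 under TMM, 0.104 with DESeq2 factors and 0.129 per clean read. The adrenal juvenile to adolescence ratio was 1.25 and the adult to aged ratio 1.06. The same step from adolescence to adult was lower by at least 2-fold in antler (ratio 0.484, 31% of others), kidney (0.285, 33.7%), lung (0.123, 28.7%), spleen (0.251, 39.6%) and testes (0.137, 41.3%). The antler step did not pass under the other scalings, with 0.764 under TMM, 0.796 with DESeq2 factors and 1.48 per clean read. In RPM this step lay within 2-fold in heart (0.540), skeletal muscle (0.552), liver (1.88) and brain (1.74). Heart passed the limit under the others, with 0.0732 under TMM, 0.166 with DESeq2 factors and 0.311 per clean read. The brain step was 0.594 under TMM and 0.885 with DESeq2 factors but 3.86 per clean read, so its direction rested on the scaling.

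From juvenile to adolescence, the ratio was 0.410 in brain (49% of others were lower by 2-fold) and 0.375 in kidney (9.8%), and it was 8.05 in testes (31% of others were higher by 2-fold) and 3.69 in lung (25%). Per clean read the testes step was 0.830, and under TMM and with DESeq2 factors the brain step was 0.554 and 0.608. From adult to aged, it was 0.375 in liver (9.57% of others lower) and 20.2 in spleen (39.6% higher). The liver step was 0.564 under TMM and 0.665 per clean read. The higher steps in lung, testes and spleen all end in the 3 doubted libraries. The brain step lies close to the background of that pair of libraries.

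To place miR-7 among miRNAs of related tissue, a list of 9 neural and endocrine miRNAs and a list of 28 miRNAs of the DLK1-DIO3 cluster, an imprinted gene region active in brain and adrenal, were followed. Of the 9, 8 had their highest mean RPM in brain and 1, miR-375, in the adrenal. From these same libraries the study had named miR-153, miR-212 and miR-383 as present in brain and adrenal only. It named miR-329a and miR-496 of the cluster likewise, and miR-219 and miR-488 as specific to brain. The place of these members was therefore known in advance and lends no support. miR-375, an endocrine miRNA of the pancreatic islet, had only 15 reads over the 4 adrenal libraries and none in brain. Of the 28, 17 were highest in the adrenal and 7 in brain, although many had under 10 reads in all. Some names may share reads, as miR-376a, miR-376b and miR-376d each had 3 adrenal reads at 0.983 RPM. The share of all known names highest in either organ was not taken, so no excess can be read from the counts of either list. Only 2 of the 9 and 8 of the 28 passed the minimum of at least 10 reads in at least 4 libraries, so neither count covers its list. A member could also pass through the 4 libraries of 1 organ where it is high. miR-412 had 14, 44, 53 and 88 reads in the adrenal and 269 in all. miR-541 had 71 reads in the adrenal, 70 in brain and 171 in all. The minimum thus favoured in advance that such members be called higher in these organs.

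In the adrenal against the mean of the other 9 organs, limma called 8 of the 123 tested miRNAs beside miR-7 higher (6.5%) and 8 lower (6.5%) at an adjusted p below 0.01 and a log2 difference beyond 1. Of the 8 tested cluster members 5 were called higher and 0 lower (median log2 difference 3.05, against -0.05 over the 123 tested miRNAs beside miR-7). They were miR-409b (4.66, SE 0.51, adjusted p = 3.8e-09), miR-409a (4.36, SE 0.37, adjusted p = 1.3e-11), miR-433 (3.79, SE 0.65, adjusted p = 1.6e-05), miR-412 (3.66, SE 0.44, adjusted p = 1.6e-08) and miR-541 (2.44, SE 0.44, adjusted p = 3.4e-05). Without the adolescence lung and aged spleen, a choice made after seeing the data, all 8 were called. Calls rose in general in that fit, with 18 miRNAs called higher in place of 8, cluster members included. Neither tested neural and endocrine miRNA was called, and miR-124a differed by 0.51 (SE 0.74) and miR-671 by 0.14 (SE 0.56). The fitted difference of miR-7 in this contrast was 4.78 (SE 0.54), the largest of the 124, as the choice of miR-7 would lead to.

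In brain, 23 of the 123 were called higher (18.7%) and 26 lower (21.1%). Both tested neural and endocrine miRNAs were called higher, miR-124a by 12.09 (SE 0.74, adjusted p = 5.3e-16) and miR-671 by 2.91 (SE 0.56, adjusted p = 3.6e-05). However, the mean RPM of miR-671 in brain was little above that in antler (96.2 against 89.7). Its brain values were 42.2, 214, 75.1 and 53.1 RPM from juvenile to aged, highest in the adolescence library that was poor in miR-124a. Of the 8 cluster members 7 were called higher, led by miR-433 (5.83, SE 0.65), miR-541 (3.41, SE 0.44) and miR-134 (3.34, SE 0.54), and miR-493 was called lower (-2.58, SE 0.61). Their median log2 difference was 2.87, against -0.05 over all. The fitted difference of miR-7 was 3.34 (SE 0.54), the thirteenth from the top. The adrenal and brain contrasts share the other 8 organs, so they are not independent of each other.

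**Figure D4:**
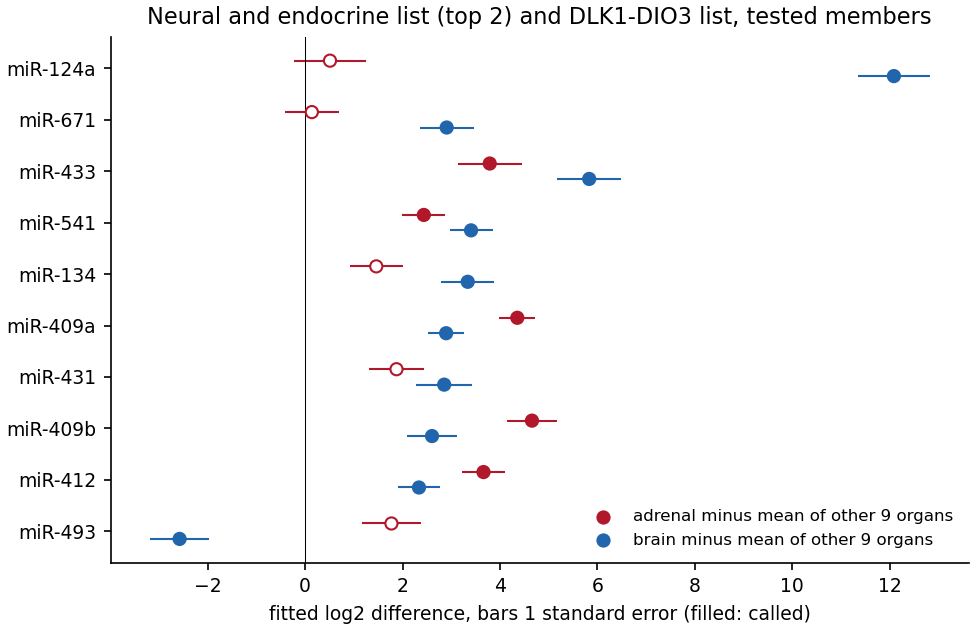
Fitted log2 difference on the log2(RPM + 1) scale (x axis) of the 10 tested list members (y axis) in adrenal and in brain, each against the mean of the other 9 organs, with bars of 1 standard error and filled points for called members. miR-409a, miR-409b, miR-412, miR-433 and miR-541 are called higher in both organs, while miR-124a and miR-671 are called in brain and not in adrenal.

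Between older and younger adrenal, limma called 0 of the 123 miRNAs beside miR-7 higher (0%) and 1 lower (0.813%), with 24 at an unadjusted p below 0.05. The called miRNA was miR-450b, named after its value was seen, and it was not called with DESeq2 size factors, with edgeR or without any single adrenal library. No list member was called. miR-124a differed by -3.05 (SE 1.36, adjusted p = 0.21) and miR-671 by -2.51 (SE 1.05, adjusted p = 0.19), on 5 to 62 and 6 to 39 reads per adrenal library. The cluster members had a median of 0.12, against -0.26 over the 123. For example, miR-433 held 994, 1225, 4093 and 6084 RPM in the adrenal from juvenile to aged, higher in the older libraries where miR-7 was lower, but its fitted difference of 1.44 (SE 1.203, adjusted p = 0.50) did not pass.

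Over the 40 libraries, the 5 miRNAs whose log2 levels after TMM scaling followed miR-7 most closely were miR-409a (Pearson's r = 0.740), miR-134 (0.665), miR-185 (0.605), miR-33a (0.577) and miR-671 (0.566), with a median r of 0.02 over 123 miRNAs. The points share organs, deer and depth, so these values are a description. The 4 highest values of miR-409a were those of the adrenal, at 10204, 13584, 10119 and 14806 RPM from juvenile to aged, where younger and older overlapped, and brain held 806 to 6239 RPM. miR-134, miR-33a and miR-671 had only 291, 182 and 629 reads in all. Only 2 of these 5 stayed in the first 5 with total-read scaling, and 3 did by Spearman's rho, without the adrenal libraries or without the adolescence lung and aged spleen.

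With each organ's mean taken off, so that only the differences between the 4 libraries of an organ remain, the miRNA closest to miR-7 was miR-1 (r = 0.894), followed by miR-1388-5p (0.793) and miR-2285f (0.757), against a median of 0.19. Of the 123, 25 exceeded 0.5. miR-1 is the miRNA of heart and skeletal muscle, and over all 40 libraries without this centring it did not follow miR-7 (r = -0.06). Its within-organ r was 0.861 with total-read scaling, and 0.856 under TMM without the adolescence lung, aged spleen and adolescence testes. The adrenal miR-1 levels were 6601, 3124, 1986 and 825 RPM, and those of brain 3911, 1867, 1562 and 968 RPM, both with younger above older. In the libraries that stood apart, miR-1 was high as well, with 52057 RPM in the aged spleen against 1782 to 7564 in the other spleens, and 4815 RPM in the adolescence lung against 969 to 1047 in the other lungs. The adolescence testes held 48579 RPM of miR-1 against 3390 to 13997 in the other testes.

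Since miR-1 was picked as the miRNA closest to miR-7 within organs, the ratio of their reads restates that likeness, and it is given only to show its size in each organ. In spleen it ran from 0.386 to 0.606, a 1.57-fold range, where RPM of miR-7 ranged 20.2-fold. In kidney it ran from 0.315 to 0.811, a 2.57-fold range against 14.6-fold, and in lung from 1.71 to 4.08, a 2.38-fold range against 8.12-fold. In the adrenal the ratio was 71.9, 189, 46.9 and 120 from juvenile to aged, so younger and older libraries overlapped, and the range was 4.03-fold against 6.34-fold. In skeletal muscle the ranges were alike, at 2.20-fold against 2.21-fold, and in liver the ratio ranged more widely, at 6.49-fold against 2.67-fold. By this ratio both older libraries lay below both younger ones in 4 organs, namely testes, antler, lung and skeletal muscle, and not in the adrenal. What makes the 2 miRNAs move together was not tested.

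**Figure D5:**
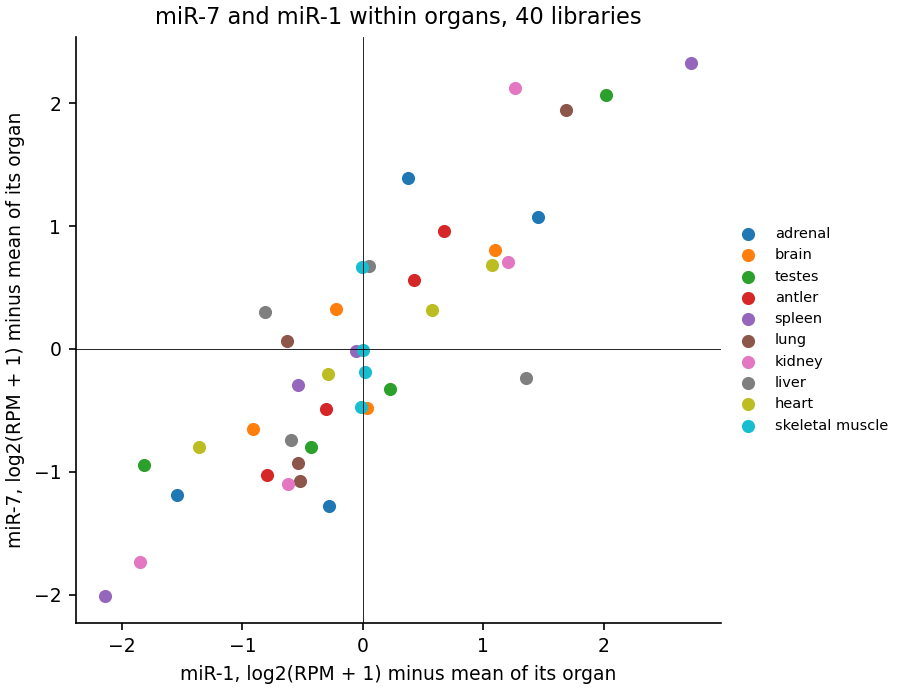
miR-7 against miR-1 in 40 libraries, each as log2(RPM + 1) minus the mean of its organ (both axes), coloured by organ. The points rise together (r = 0.861), with the aged spleen, adolescence testes and adolescence lung at the upper right.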

How the data were processed

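Small RNA was sequenced from 40 pooled libraries. The labels name a NEBNext small RNA kit and the study's methods a TruSeq kit, and this was not settled. Per the labels, CASAVA, bcl2fastq 1.8.4 and Bowtie were used. The authors matched reads to miRBase, predicted further miRNAs and deposited RPM per miRNA, without names that had no read. Every 1 of the 7982 values was a whole multiple of a library's smallest step to within 0.01 read (100% whole), which gave the read counts. Near-identical names can share reads.

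Shares, ratios and exact binomial intervals (95%) were computed with Python 3.11.15 and scipy 1.17.1, and cover counting error only. limma 3.58.1 (R 4.3.3) was fitted to log2(RPM + 1) for the 124 known miRNAs that reached 10 reads in 4 or more libraries, with organ and stage (27 residual degrees of freedom) or organ by maturity and stage within maturity (18), and tested on simulated data. p values were adjusted by Benjamini-Hochberg. The p values take libraries as replicates, which share deer. Antler reads named miR-148c were added to miR-2957.

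TMM factors (edgeR 4.0.16) were first taken over the tested names, then over all known names, and the former was kept as the main setting after the results of both had been seen. miR-7, the lists and the libraries left out were chosen with earlier results of these data known. The miRNAs named were the 5 with the highest mean RPM in the adrenal, miR-7 included, the 5 most like miR-7 and the 3 most like it within organs, and up to 4 called members of each list with the largest difference. miR-199a-3p and miR-541 in the adrenal, miR-450b, the organ markers and the uncalled list members given with values were named beyond this rule. So were list members that the study had named. Alternatives were total reads, DESeq2 1.42.0, edgeR on recovered reads, clean reads as the study's library table gives them, no minimum of reads, 10 RPM in the log, no stage term, and libraries left out. The fits without 3 libraries and the levels of miR-7 by organ and stage under other scalings were added after seeing the data.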

Additional observations from a re-analysis of the deposited data

Results flagged for a closer look

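In 3 of 10 organs, 1 library lay far from the other 3 in miR-7. The gap to the nearest of the others, divided by the range of all 4, was 0.925 for the adolescence testes (85407 RPM), 0.845 for the aged spleen (20109 RPM) and 0.831 for the adolescence lung (14563 RPM). The 4 libraries are of different stages and not replicates, and miR-7 was chosen with these values known, so the gaps are a description and no test.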

How the results depend on the processing

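The ratio of adrenal to brain was 6.22 in RPM, 3.70 under TMM, 3.33 with TMM over all known names, 3.70 with DESeq2 size factors, 5.14 per clean read and 4.56 with near-identical names counted 1 time, and 3.95 to 8.09 without a stage. The adrenal difference of older minus younger was -3.20 under TMM over the tested names and -2.06 with TMM over all known names, and -2.57 to -3.51 on leaving out a library. Both TMM versions had been seen when the former was made the main one, and the calls between older and younger adrenal were 0 higher and 1 lower with it, and 0 and 0 with the other. Of the 5 miRNAs most like miR-7, 3 stayed by Spearman's rho, 2 with total reads, 3 without the adrenal libraries and 3 without the adolescence lung and aged spleen. With no minimum of reads, 1 neural and endocrine miRNA was called higher in the adrenal (0 with it) and 8 in brain (2 with it). Over all miRNAs, 12 were then called higher in the adrenal and 41 in brain, in place of 8 and 23. More miRNAs were tested in that setting, and their number is not given here. List members below the minimum were scarce, with 6 reads in all for miR-488 and 9 for miR-219-3p. In the adrenal, 8 miRNAs beside miR-7 were called higher and 8 lower with TMM, 31 and 6 with total reads, 14 and 10 with edgeR, 17 and 12 with DESeq2, and 18 and 9 without the adolescence lung and aged spleen. DLK1-DIO3 members called higher there were 8 in place of 5 with total reads, with DESeq2 and without those 2 libraries. In brain, 14 were called higher without the adult stage, in place of 23. In older adrenal, 3 were called lower with DESeq2 and 5 without the adolescence lung and aged spleen, in place of 1. The causes were not tested. TMM over all known names and the libraries left out beside the stages and the adrenal were chosen after seeing the data. Depth limits the scarce miRNAs most, as 1 read stood for up to 23.9 RPM.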
